A study of Mus musculus with 90 samples.

Results

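CXCL9, CXCL10 and CXCL11 are chemokines, secreted proteins that guide cell movement, and share the receptor CXCR3. CXCL16 is the ligand of CXCR6. The 6 genes Cxcl9, Cxcl10, Cxcl11, Cxcr3, Cxcl16 and Cxcr6 were taken by name from the 18194 genes with a probe set that names a single gene symbol. Where a gene had several such probe sets, the brightest by its mean across the 90 arrays was read, and the 6 genes have 10 probe sets among them. Their transcripts were followed over 12 groups of mouse melanoma allografts, and from tumour to tumour.

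All tumours were subcutaneous and carried the genotype label Hgftg;Cdk4R24C/R24C, a hepatocyte growth factor transgene with the R24C form of Cdk4, in strain B6.cBrd. Treated mice received an antibody against mouse PD-L1 (mIgG1 D265A, clone 80). The antibody control was mouse IgG1 D265A (NIP228) and the vehicle control was PBS. Doses in the sample labels are 10 mg/kg of either antibody and 10 ml/kg of PBS, while the series' design text also allows 20 mg/kg. Under anti-PD-L1, responders shrank by at least 5% and were taken after 2 to 12 doses. Stabilization tumours were responders with no change between consecutive measurements. Relapse tumours regressed below a measurable volume and grew again after 4 to 10 doses. Growth delay tumours appeared only once treatment had been given, and non-responders grew and were taken at matching times. Study 2 held 17 responder, 3 relapse, 2 growth delay, 14 non-responder, 14 IgG and 3 PBS tumours. Study 3 held 10 responder, 3 stabilization, 3 relapse, 9 non-responder, 8 IgG and 4 PBS tumours.

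Outcome was assigned at harvest, so a group gives the state of a tumour that had already shrunk or grown, and not its state before treatment. Each array holds a whole tumour, in which fewer cells of a type and less RNA per cell cannot be told apart. The sample titles carry a number for each tumour, read here as an animal number. These numbers follow the arms, in consecutive ranges in study 2 and in ranges apart from each other in study 3. The labels name no cohort, and a difference between arms from separate sets of animals was not tested.

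The CXCR3 ligands are best known as genes switched on by interferon gamma. CXCR3 is carried by activated CD8 T cells, type 1 helper T cells and NK cells, which the ligands draw into inflamed tissue. CXCL9 and CXCL10 are made by macrophages, dendritic cells, stromal cells and some tumour cells. CXCL16 is unusual among chemokines in being made as a membrane protein of macrophages and dendritic cells, from which the proteases ADAM10 and ADAM17 release a soluble form. CXCR6 marks effector and tissue-resident T cells and innate lymphocytes.

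Promoter windows of 300 bases (250 before to 50 after the annotated start, RefSeq, GRCm38.p6) were found for 4 of the 6 genes. Those of the interferon-inducible ligands Cxcl10 and Cxcl9 are shown because both genes moved with interferon gamma transcripts in these tumours. Capitals mark letters that match the interferon-stimulated response element core, written as GAAA, any 2 bases and GAAA again. The Cxcl10 window lies at chr5:92348840-92349139 and the Cxcl9 window at chr5:92328030-92328329, both on the minus strand.
Cxcl10: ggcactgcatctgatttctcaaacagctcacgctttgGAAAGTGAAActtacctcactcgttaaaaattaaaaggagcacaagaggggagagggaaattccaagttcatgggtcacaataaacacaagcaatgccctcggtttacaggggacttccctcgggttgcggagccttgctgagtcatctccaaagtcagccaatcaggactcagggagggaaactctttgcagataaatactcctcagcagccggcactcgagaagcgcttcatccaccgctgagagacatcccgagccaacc
Cxcl9: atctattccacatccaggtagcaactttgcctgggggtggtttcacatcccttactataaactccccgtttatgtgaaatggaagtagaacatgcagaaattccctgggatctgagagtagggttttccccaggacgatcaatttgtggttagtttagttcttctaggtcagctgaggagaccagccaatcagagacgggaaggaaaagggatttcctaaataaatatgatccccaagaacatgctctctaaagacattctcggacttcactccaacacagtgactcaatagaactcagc
The single match lay in Cxcl10, from base -213 to base -204 relative to the start, on the gene strand. The same letters are found in 1131 of 32851 mouse promoter windows, 3.44%. The core of the gamma-activated sequence, TTCNNNGAA (N is any base; present in 8.3% of windows), and a form of the kappa B site (1.63% of windows) were not found in these letters. The windows of Cxcr3 (chrX:101734098-101734397, minus strand) and Cxcr6 (chr9:123806227-123806526, plus strand) held none of these motifs on either strand. Only that form of the kappa B site was searched for. Other spellings of the site may be present in any of the windows, that of Cxcl10 included, and the search does not show that kappa B sites are absent. A match of letters is a description and not evidence of binding. In the annotation Cxcl9 and Cxcl10 flank Art3 on chromosome 5 and Cxcl11 follows Cxcl10, so that the CXCR3 ligands form a cluster. Cxcr3 lies on chromosome X, Cxcl16 on chromosome 11, and Cxcr6 on chromosome 9 between Fyco1 and Xcr1. The reference assembly, which is of a C57BL/6 mouse, annotates Cxcl11 as a transcribed pseudogene, so the values below are transcript levels with no statement on protein.

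Values are RMA log2 expression and lie between 2.19 and 14.84 over all arrays, with array medians of 5.71 to 5.90. In 5 tumours the mean of 10 melanocyte genes was below 9 (6.65 to 8.84), while all others were at 9.29 or above. They were study 2 non-responder replicate 14, study 3 responder replicates 3 and 4, and study 3 stabilization replicates 1 and 2. Non-responder 14 and responder 3 had B cell list means of 9.74 and 9.99, and responder 4 and stabilization 2 had skeletal muscle means of 13.69 and 11.79. Results that rest on these tumours are given with and without them. Study 3 PBS replicate 2 had an Actb 3 prime minus 5 prime difference of 6.09, and the next highest array had 1.06.

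**Figure D1:**
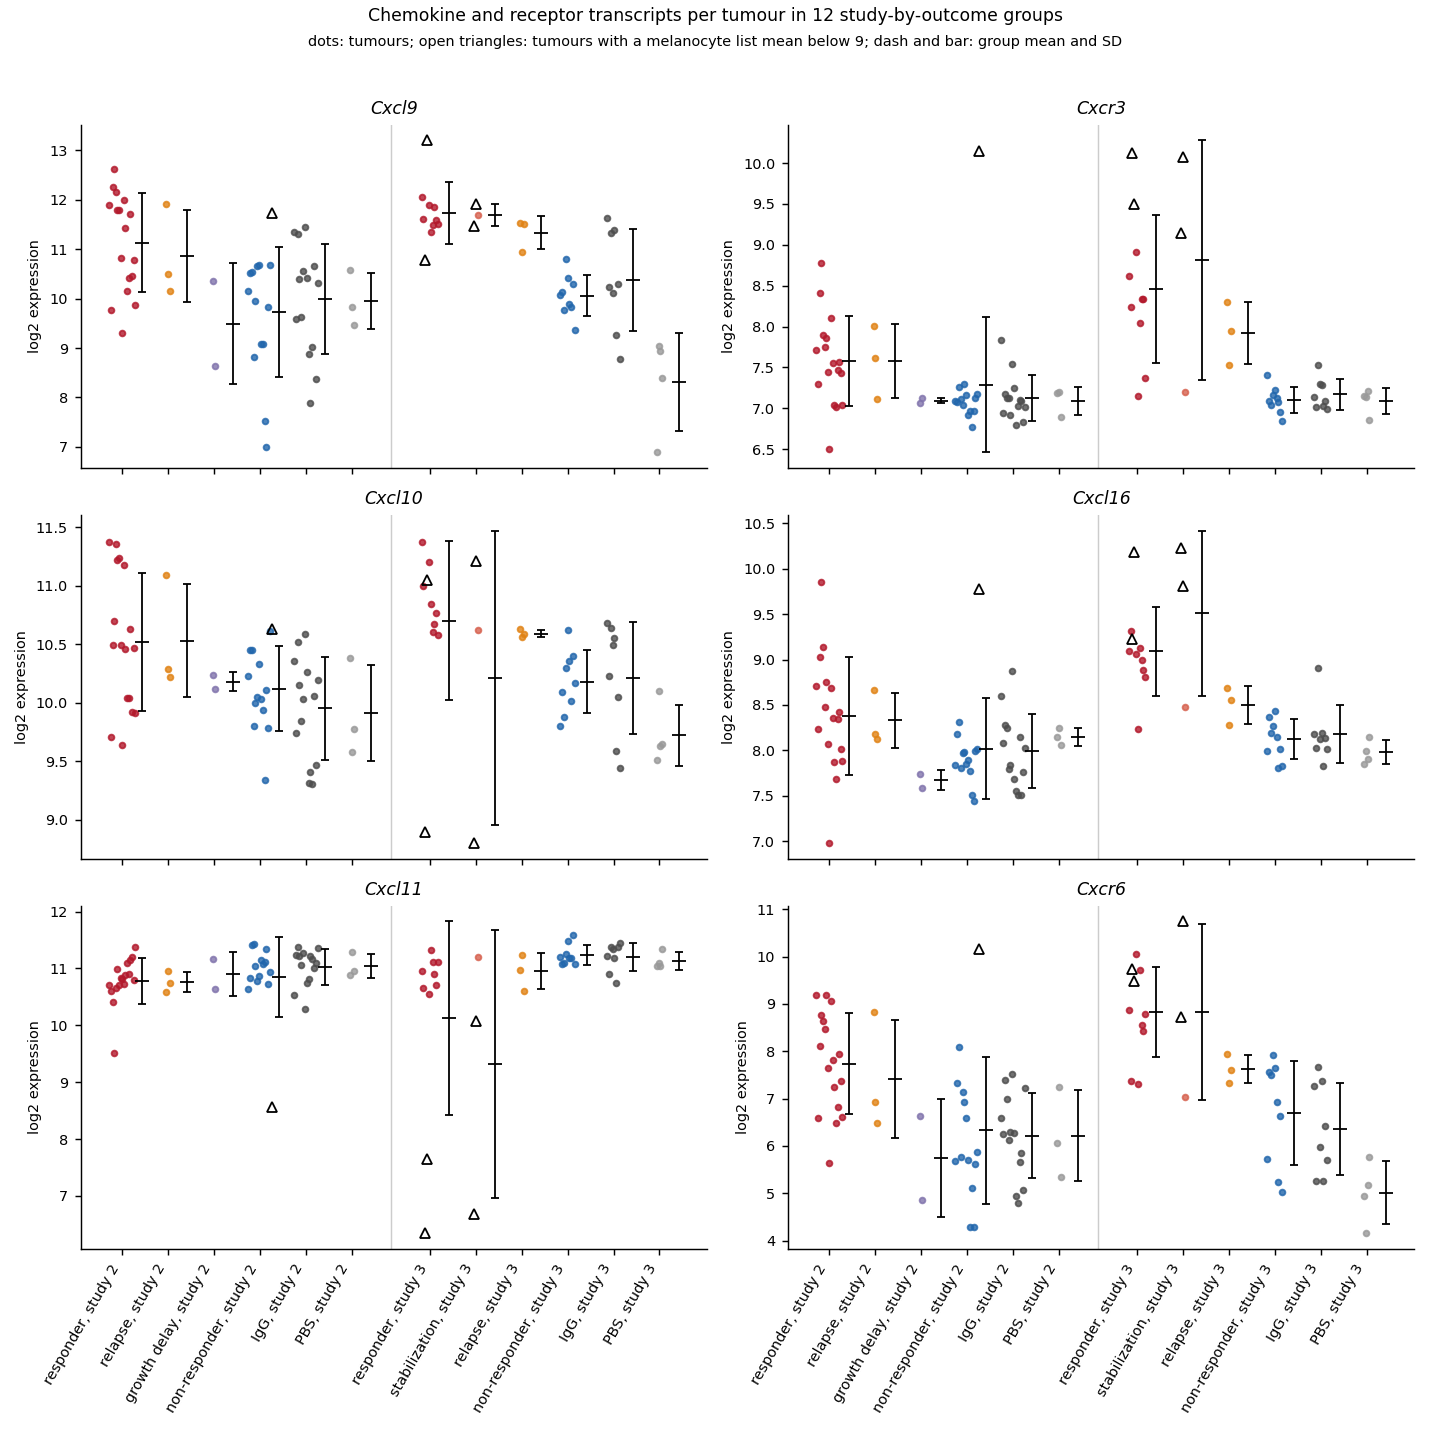
Log2 expression of the 6 genes (vertical axes) in each tumour of the 12 groups (horizontal axes; study 2 left of the grey line, study 3 right of it). Dots are tumours, open triangles are the 5 tumours with a melanocyte list mean below 9, and dashes with bars are group means with SD; in study 3, 9 of 10 responders lie above the highest non-responder for Cxcl9 and for Cxcl16.

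The first comparison asked how the 2 chemokine axes differ between tumours that regressed and tumours that grew under anti-PD-L1. Averaged over both studies, 5 of the 6 genes were higher in responders and 1, Cxcl11, was lower (limma, Benjamini-Hochberg adjusted over all 18194 genes, threshold 0.05). Over all genes tested 18.9% passed upward and 32.3% downward in this comparison. The median log2 difference of the 6 genes was 0.74, beside -0.06 over all genes. Values for single genes follow in the order of CXCR3 ligands, CXCR3, and the CXCL16 and CXCR6 pair.

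Cxcl9 was 2.89-fold higher in responders than in non-responders. In study 2 its level ran from 9.30 over a median of 11.42 to 12.62 in responders, against 7.0, 10.06 and 11.73 in non-responders. In study 3 it ran from 10.78 over 11.59 to 13.20 in responders, against 9.36, 10.07 and 10.80 in non-responders. The groups overlapped in both studies, with 7 of 17 study 2 responders and 9 of 10 study 3 responders above the highest non-responder. The difference was 1.53 ± 0.28 on the log2 scale (SE; limma adjusted p = 6.27e-05). It passed within study 2 (1.39 ± 0.35, limma adjusted p = 0.0246) and within study 3 (1.67 ± 0.44, limma adjusted p = 0.00421). The dimmer of its probe sets gave 1.45 (limma adjusted p = 4.48e-05).

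Cxcl10, another of the interferon-inducible ligands, was 1.37-fold higher in responders. Study 2 responders had a lowest value of 9.64, a median of 10.49 and a highest of 11.37, against 9.34, 10.08 and 10.63 in non-responders. In study 3 the values were 8.89, 10.80 and 11.37 in responders and 9.80, 10.17 and 10.62 in non-responders. The lowest of the study 3 responders was replicate 3, a tumour low in melanocyte transcripts, and the other 9 were at 10.58 or above. The averaged difference was 0.46 ± 0.15 (limma adjusted p = 0.00911), and neither study passed alone (0.40 ± 0.18, limma adjusted p = 0.153 in study 2; 0.52 ± 0.23, limma adjusted p = 0.0676 in study 3). Without the 5 tumours low in melanocyte transcripts both passed, at 0.44 (limma adjusted p = 0.0325) and 0.70 (limma adjusted p = 0.018).

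Cxcl11 went the other way from the other CXCR3 ligands, with a level 1.5-fold lower in responders. In study 2 it was 9.51, 10.82 and 11.37 (lowest, median, highest) in responders, against 8.56, 10.98 and 11.43 in non-responders. In study 3 it was 6.34, 10.81 and 11.32 in responders, against 11.08, 11.19 and 11.59 in non-responders. The study 2 groups lay within the same range, and in study 3 7 of 10 responders were below the lowest non-responder. The averaged difference was -0.59 ± 0.23 (limma adjusted p = 0.0273), with -0.06 ± 0.28 in study 2 (limma adjusted p = 0.894; -0.24 without non-responder 14, limma adjusted p = 0.516) and -1.11 ± 0.36 in study 3 (limma adjusted p = 0.0143). Cxcl11 was 8.56, 6.34, 7.64, 6.69 and 10.07 in the 5 tumours low in melanocyte transcripts, in the order in which they were named above. Without them the averaged difference was -0.28 (limma adjusted p = 0.00999), and in study 3 it was -0.32 and did not pass (limma adjusted p = 0.111). The second Cxcl11 probe set, the dimmer of the pair, gave an averaged difference of -0.17 that did not pass (limma adjusted p = 0.323).

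Cxcr3, the receptor of these 3 ligands, was 1.77-fold higher in responders. Its values were 6.50, 7.55 and 8.78 (lowest, median, highest) in study 2 responders, against 6.77, 7.10 and 10.15 in non-responders. The value of 10.15 belongs to non-responder 14, one of the tumours low in melanocyte transcripts, and is the highest of all 90. In study 3 they were 7.15, 8.34 and 10.12 in responders, against 6.85, 7.09 and 7.41 in non-responders, and 8 of 10 responders lay above every non-responder. The averaged difference was 0.82 ± 0.17 (limma adjusted p = 0.000255). Study 3 passed alone (1.36 ± 0.27, limma adjusted p = 0.000689) and study 2 did not (0.29 ± 0.21, limma adjusted p = 0.361). Without the 5 tumours low in melanocyte transcripts study 2 passed as well (0.51, limma adjusted p = 0.00651).

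Cxcl16, the membrane-bound chemokine of myeloid cells, was 1.59-fold higher in responders. Study 2 responders had 6.98, 8.36 and 9.86 (lowest, median, highest), against 7.44, 7.93 and 9.78 in non-responders. Study 3 responders had 8.24, 9.08 and 10.19, against 7.81, 8.15 and 8.43 in non-responders. In study 3, 9 of 10 responders were above the highest non-responder, and in study 2, 1 of 17. The averaged difference was 0.67 ± 0.14 (limma adjusted p = 0.000255), with 0.36 ± 0.17 in study 2 (limma adjusted p = 0.17) and 0.98 ± 0.22 in study 3 (limma adjusted p = 0.00145). The study 2 difference passed without the tumours low in melanocyte transcripts (0.49, limma adjusted p = 0.0127). The other Cxcl16 probe set gave a larger averaged difference of 1.01 (limma adjusted p = 0.000107).

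Cxcr6, the receptor of CXCL16, had the largest difference of the 6 genes, 3.43-fold. It ran from 5.64 over 7.82 to 9.19 in study 2 responders, against 4.28, 5.82 and 10.16 in non-responders. In study 3 it ran from 7.30 over 8.83 to 10.06 in responders, against 5.03, 6.93 and 7.93 in non-responders. The highest study 2 non-responder was again replicate 14, and 16 of 17 study 2 responders were above the non-responder median. The averaged difference was 1.78 ± 0.32 (limma adjusted p = 6.17e-05), and both studies passed alone (1.41 ± 0.40, limma adjusted p = 0.0425, and 2.14 ± 0.51, limma adjusted p = 0.0022).

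Within study 2, then, 2 of the 6 genes passed upward, where 0.616% of all genes did. Within study 3, 4 passed upward (14.4% of all genes) and 1 downward (22.4%). The differences between the studies were tested directly, and 0 of the 6 genes and 0% of all genes passed (limma). The largest was that of Cxcr3, larger in study 3 by 1.07 ± 0.34 (limma adjusted p = 0.32, unadjusted p = 0.00242), and 3 of the 6 genes had an unadjusted p under 0.05. In study 2 the call of Cxcl9 and Cxcr6 did not hold when only responders and non-responders were fitted (limma adjusted p = 0.0649 and 0.0851), and without non-responder 14 alone 4 of the 6 genes passed upward, in a fit that called 15.8% of all genes in either direction. Without the 5 tumours low in melanocyte transcripts 24.9% of all genes were called in study 2, so more calls there were not particular to these genes.

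**Figure D2:**
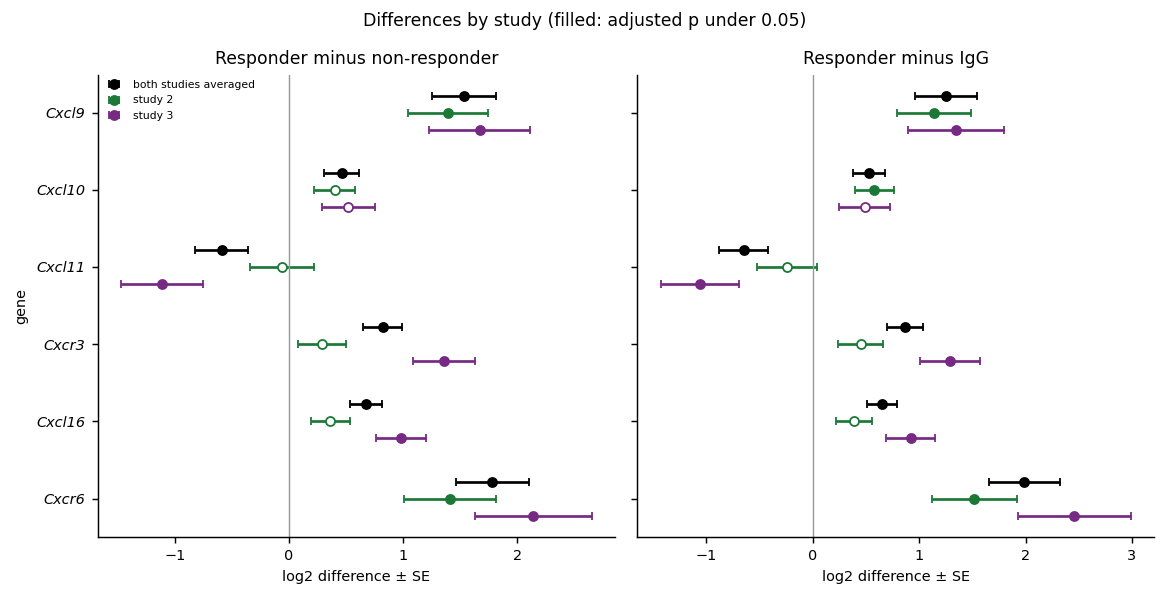
Log2 differences (horizontal axes, with SE bars) of the 6 genes for responder minus non-responder (left) and responder minus IgG (right), averaged over both studies and within each. Filled points have an adjusted p under 0.05; Cxcl11 is the gene on the negative side, with -1.11 in study 3 and -0.06 in study 2 against non-responders.

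Against the IgG control all 6 genes passed in the same directions. Cxcr6 was 3.98-fold higher in responders (1.99 ± 0.33, limma adjusted p = 2.2e-05) and Cxcl9 2.37-fold (1.25 ± 0.29, limma adjusted p = 0.00109). Cxcr3 (0.87 ± 0.17), Cxcl16 (0.65 ± 0.14) and Cxcl10 (0.53 ± 0.15) were higher too, and Cxcl11 was lower by this measure (-0.65 ± 0.23, limma adjusted p = 0.0236). Over all genes 15.3% passed upward and 20.1% downward. Cxcr6 ranged from 4.80 to 7.53 in study 2 IgG tumours, and 10 of 17 responders were above all of them. In study 3 IgG tumours it ranged from 5.25 to 7.67, with 8 of 10 responders above that range.

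Within study 2, Cxcl9 (1.14 ± 0.35), Cxcl10 (0.58 ± 0.18) and Cxcr6 (1.52 ± 0.40) passed upward against IgG, beside 10.9% of all genes. Within study 3, Cxcl9 (1.35 ± 0.45), Cxcr3 (1.29 ± 0.28), Cxcl16 (0.92 ± 0.23) and Cxcr6 (2.46 ± 0.53) passed upward (9.2% of all genes) and Cxcl11 passed downward (-1.06 ± 0.37; 8.18% of all genes). With the 5 tumours low in melanocyte genes left out, the study 3 values were 1.29 for Cxcl9 and -0.28 for Cxcl11, and neither passed (limma adjusted p = 0.0897 and 0.316), while Cxcl10 did (0.67, limma adjusted p = 0.0394). None of the 6 genes differed between studies in this contrast by the test of the difference, and 1.7% of all genes did. The responder comparisons with IgG and with non-responders share the responder tumours and are not independent of each other.

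Tumours that grew under anti-PD-L1 did not differ from IgG tumours past the threshold in any of the 6 genes. The averaged differences ran from -0.29 ± 0.29 for Cxcl9 to 0.22 ± 0.34 for Cxcr6, and none passed (limma, adjusted p = 1 for each), beside 0.0055% of all genes. None passed within study 2 (0% of all genes), within study 3 (0.693%) or in the difference between studies (0.203%). None of these comparisons had an unadjusted p under 0.05 for any of the 6 genes. A value that misses the threshold does not show that the groups have the same level.

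Averaged over the studies, the mean of relapse tumours lay between those of responders and non-responders for all 6 genes, though in study 2 alone it was 10.76 for Cxcl11, below both, and 10.53 for Cxcl10, above the 10.52 of responders. Over both studies Cxcl11 averaged 10.85 in relapse tumours, 10.46 in responders and 11.04 in non-responders. Cxcl9 was 11.91, 10.49 and 10.15 in the study 2 relapse tumours and 11.53, 10.95 and 11.51 in those of study 3, all 3 of which lay above every study 3 non-responder. Cxcl9 was higher in relapse tumours than in non-responders by 1.19 ± 0.44 (limma adjusted p = 0.0416), beside 9.96% of all genes. That call did not hold when any 1 of the 6 relapse tumours was left out, with values of 0.93 to 1.37 (limma adjusted p from 0.0504 to 0.163), and 3 genes passed without non-responder 14, where 32.9% of all genes were called. Cxcr3 was 8.01, 7.62 and 7.11 in study 2 and 8.30, 7.53 and 7.94 in study 3, also above every study 3 non-responder. Its averaged difference of 0.55 ± 0.27 did not pass (limma adjusted p = 0.108). The share of all genes with every study 3 relapse tumour above every non-responder was not counted. Cxcr6 was 8.84, 6.93 and 6.48 in study 2 and 7.94, 7.33 and 7.61 in study 3, with a difference of 1.02 ± 0.51 (limma adjusted p = 0.116). No member passed against responders, and none had an unadjusted p under 0.05 there. In that comparison Cxcr6 differed by -0.76 ± 0.50 (limma adjusted p = 0.847; 0% of all genes). None passed against IgG (1.09% of all genes), with Cxcl9 at 0.91 (limma adjusted p = 0.147) and Cxcr6 at 1.23 (limma adjusted p = 0.105).

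The 3 stabilization tumours of study 3 were apart from each other. Cxcr3 was 9.15, 10.08 and 7.20 in replicates 1, 2 and 3, Cxcr6 was 8.73, 10.75 and 7.04, and Cxcl11 was 6.69, 10.07 and 11.20. Replicates 1 and 2 are low in melanocyte transcripts. Cxcl9 (11.47, 11.91 and 11.68) and Cxcl16 (10.23, 9.81 and 8.48) lay above every study 3 non-responder in all 3. How many of all genes lay apart in this way was not counted. Against non-responders, Cxcl9 (1.63 ± 0.64), Cxcr3 (1.71 ± 0.39), Cxcl16 (1.39 ± 0.32) and Cxcr6 (2.15 ± 0.74) passed upward (13.3% of all genes) and Cxcl11 passed downward (-1.92 ± 0.52; 18% of all genes). Without replicate 1 none of the 6 genes passed, beside 0.0055% of all genes, and without replicate 2 Cxcl16 passed upward (1.24, limma adjusted p = 0.0275) and Cxcl11 downward (-2.29, limma adjusted p = 0.0155). Against IgG, Cxcr3 (1.64 ± 0.40), Cxcl16 (1.33 ± 0.32) and Cxcr6 (2.48 ± 0.75) passed upward (10.7% of all genes) and Cxcl11 downward (-1.87 ± 0.53; 11.5%), and none of them passed without replicate 1. Against responders none passed or had an unadjusted p under 0.05 (limma; 0.11% of all genes).

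The 2 growth delay tumours of study 2 had 10.36 and 8.63 for Cxcl9, 6.63 and 4.86 for Cxcr6 and 7.74 and 7.59 for Cxcl16. The Cxcl9 value of 8.63 and the Cxcr6 value of 4.86 were below every study 2 responder. Cxcr6 differed from responders by -1.99 ± 0.83 and Cxcl9 by -1.63 ± 0.72, and neither passed (limma adjusted p = 0.481 and 0.534; 0.126% of all genes). No member passed, or had an unadjusted p under 0.05, against non-responders (0% of all genes) or IgG (0%).

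The antibody control and the vehicle were compared as a check of the background. Averaged over studies no member passed (limma; 0.0055% of all genes; 1 of 6 with an unadjusted p under 0.05), nor within study 2 (0.0055%) or study 3 (0.484%). The largest value was that of Cxcl9 in study 3, 2.06 ± 0.59 higher in IgG tumours (limma adjusted p = 0.0865). Its level was 8.77, 10.26 and 11.63 (lowest, median, highest) in the 8 IgG tumours, against 6.89, 9.04, 8.93 and 8.39 in the 4 PBS tumours, and 7 IgG tumours were above the highest PBS tumour. Cxcr6 in the PBS tumours was 4.94, 4.15, 5.17 and 5.77, with a difference of 1.36 ± 0.68 (limma adjusted p = 0.436). In study 2 the Cxcl9 difference was 0.04 ± 0.61 (limma adjusted p = 1).

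Ordered by mean level, study 3 responders and stabilization tumours held the highest ranks of Cxcl9, Cxcr3, Cxcl16 and Cxcr6, with study 3 relapse or study 2 responder tumours next. Study 3 PBS tumours were lowest for Cxcl9 (8.31 ± 0.99), Cxcl10 (9.72 ± 0.26) and Cxcr6 (5.01 ± 0.67; SD, n = 4). The steps between neighbours in this order were small against the spread. Of 11 neighbouring pairs per gene the gap exceeded the larger SD in 1 for Cxcl9, 2 for Cxcl16, 1 for Cxcr6 and 0 for Cxcl10, Cxcl11 and Cxcr3. For Cxcr6 that gap of 1.09 separated study 3 responders (8.83 ± 0.96, n = 10) from study 2 responders (7.74 ± 1.07, SD, n = 17). For Cxcl11 the order was turned round, with study 3 non-responders highest (11.24 ± 0.18, n = 9) and stabilization tumours lowest (9.32 ± 2.35, SD, n = 3).

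The relation of the ligands and receptors from tumour to tumour was then examined, after the mean of each group was taken off, so that differences between groups do not enter. Of 15 pairs, 9 were positively and 4 negatively correlated over the 90 tumours (permutation within groups, 100000 resamples, 2-sided, adjusted over the 15 pairs). The counts were 10 and 3 without the 5 tumours low in melanocyte transcripts. With the mean of all probe sets of each gene they were 9 and 3. They were 7 and 4 with the T cell list mean taken out of both genes, and 10 and 1 with the melanocyte list mean taken out. With the T cell list mean taken out these were not all the same pairs. Some changed direction, among them Cxcl9 with Cxcr3 and Cxcl11 with Cxcr6 (values in the last section). The closest pairs were Cxcr3 with Cxcl16 (Pearson r = 0.81, Spearman rho = 0.73) and Cxcl16 with Cxcr6 (r = 0.74, rho = 0.78). For both the permutation p was 1e-05, the lowest that 100000 resamples allow (adjusted p = 1.67e-05; rho, adjusted p = 1.87e-05), and r was 0.81 and 0.77 without the 2 tumours farthest from the median of the first gene. Without the 5 tumours low in melanocyte transcripts r was 0.80 and 0.70. Cxcl16 was correlated with the receptor of the other axis and with its own.

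Cxcl9 and Cxcl10, of the same cluster on chromosome 5, had r = 0.69 and rho = 0.78, and r = 0.74 without the 2 tumours farthest from the Cxcl9 median. Cxcl9 was correlated with both receptors, Cxcr6 (r = 0.70, rho = 0.70) and Cxcr3 (r = 0.48, rho = 0.60), each with a permutation p of 1e-05 and an adjusted p of 1.67e-05. Without the 2 farthest tumours these were 0.69 and 0.50. Cxcl10 and Cxcr3 did not pass by r (r = 0.21, permutation p = 0.195, adjusted p = 0.195), and passed by rho (0.48, adjusted p = 3.33e-05), with r = 0.49 without the 2 farthest tumours. Without the 5 tumours low in melanocyte transcripts r was 0.60 for Cxcl9 and 0.55 for Cxcl10 with Cxcr3. Cxcl11 and Cxcr3 were negatively correlated (r = -0.69, rho = -0.45; adjusted p = 1.67e-05 and 0.000136), with r = -0.73 without the 2 farthest tumours and -0.54 without the 5 low ones. When the per-tumour mean of 12 T cell genes was taken out of both genes, Cxcl9 and Cxcl10 kept r = 0.65, while Cxcl9 and Cxcr3 had r = -0.30. For Cxcl16 and Cxcr6 the value was then r = 0.17, short of the threshold (adjusted p of the permutation test 0.156).

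**Figure D3:**
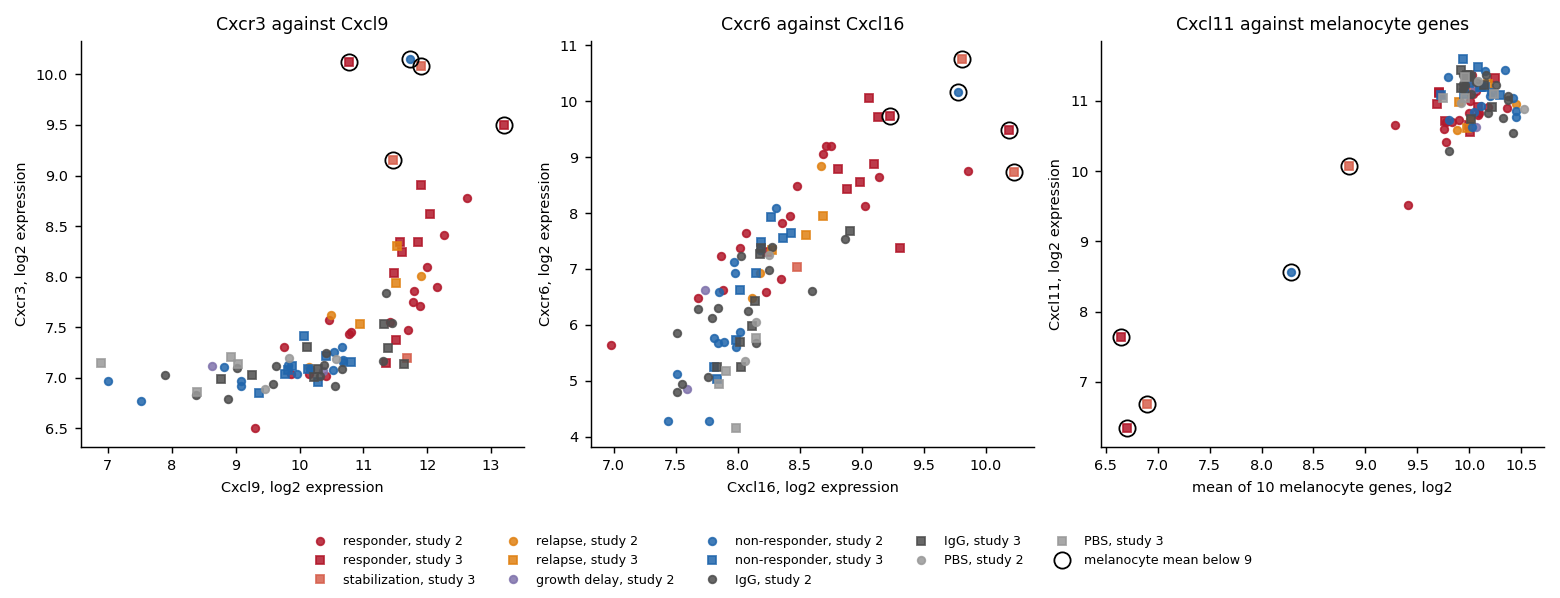
Each point is a tumour, coloured by group, with circles for study 2 and squares for study 3; rings mark the 5 tumours with a melanocyte list mean below 9. Left, Cxcr3 (vertical) against Cxcl9; middle, Cxcr6 against Cxcl16; right, Cxcl11 against the mean of 10 melanocyte genes, all in log2 expression; ringed tumours hold 5 high Cxcr3 values, from 9.15 to 10.15, and 4 of the ringed Cxcl11 values are 8.56 or lower.

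Within single groups, the CXCL16 and CXCR6 pair passed in more groups than the other ligand and receptor pairs. Cxcr3 varied less than Cxcr6 within groups. The SDs were 0.16 and 1.10 in study 3 non-responders, 0.19 and 0.97 in study 3 IgG tumours, and 0.28 and 0.89 in study 2 IgG tumours. The counts of groups therefore do not set the pairs against each other on a like spread. Over the 6 groups with at least 6 tumours Cxcl16 and Cxcr6 were positively correlated in 6 and passed in 5 (24 tests in this family). In study 2 r was 0.80 in responders (n = 17, rho = 0.87, permutation test, adjusted p = 0.00048), 0.89 in non-responders (n = 14, permutation test, adjusted p = 0.00048) and 0.75 in IgG tumours (n = 14, permutation test, adjusted p = 0.00678). In study 3 it was 0.94 in non-responders (n = 9, exact permutation test, adjusted p = 0.00114) and 0.76 in IgG tumours (n = 8, exact permutation test, adjusted p = 0.000714). The group that did not pass was study 3 responders, with r = 0.46 (n = 10, permutation test, adjusted p = 0.241) rho = 0.43, and r = -0.06 without the 2 tumours farthest from the Cxcl16 median. In the other 5 groups r without the 2 farthest tumours was 0.73 to 0.93, and rho was 0.78 to 0.93. Most relations by group that had passed no longer did so with the T cell list mean taken out of both genes. For Cxcl16 and Cxcr6, r then turned negative in study 2 responders and study 2 IgG tumours (values in the last section).

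For Cxcl9 and Cxcr3, r was above 0 in 6 of 6 groups and passed in 2, study 2 responders (r = 0.90, rho = 0.94, n = 17, permutation test, adjusted p = 0.00024) and study 2 IgG tumours (r = 0.66, n = 14, permutation test, adjusted p = 0.0169). In study 3 responders it was 0.19, and 0.82 without replicates 3 and 4, the tumours low in melanocyte transcripts. For Cxcl10 and Cxcr3, r was above 0 in 4 of 6 groups and passed in study 2 responders (0.63) and study 2 IgG tumours (0.66; permutation test, adjusted p = 0.0143 and 0.0156). For Cxcl11 and Cxcr3, r passed in 4 groups and was negative in each of them, from -0.93 in study 2 non-responders to -0.66 in study 2 IgG tumours. Without the 2 tumours farthest from the Cxcl11 median it was -0.30 in the non-responders and 0.01 in the IgG tumours, so there it rests on those tumours. It was -0.45 in study 2 responders (-0.70 with all 17) and -0.83 in study 3 responders (-0.87 with all 10).

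**Figure D4:**
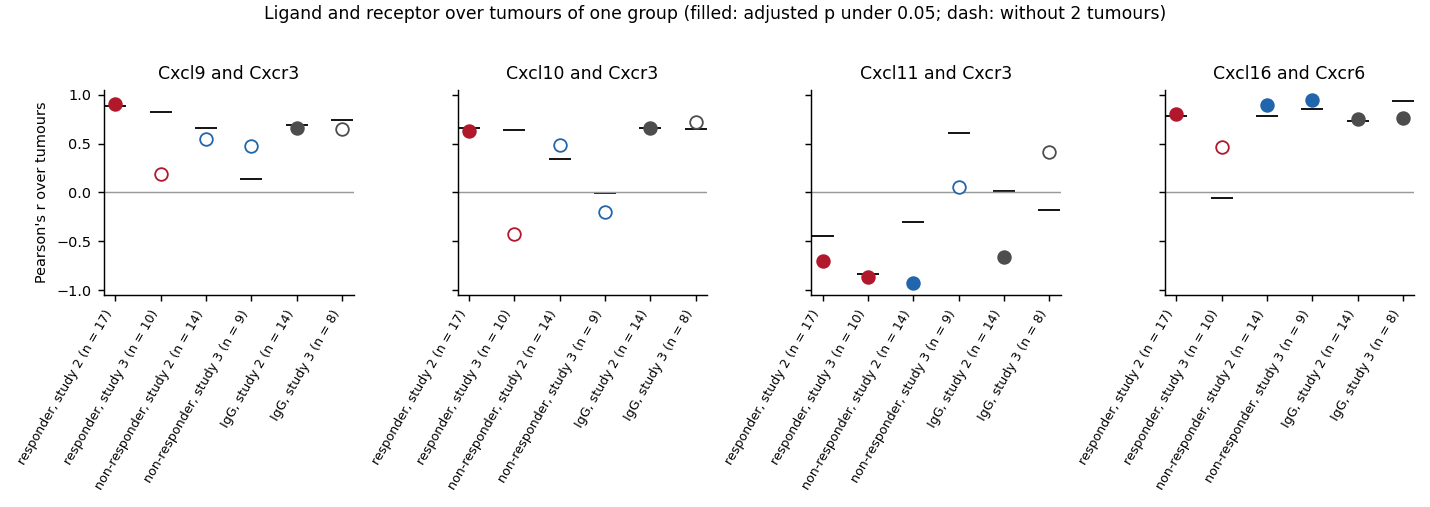
Pearson's r (vertical axis) of 4 ligand and receptor pairs in the 6 groups with at least 6 tumours (horizontal axis). Filled circles have an adjusted p under 0.05 and dashes give r without the 2 tumours farthest from the ligand median; Cxcl16 and Cxcr6 passed in 5 of 6 groups, with r from 0.75 to 0.94.

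The genes nearest to each member over the 90 tumours, by Pearson's r after group means were taken off, are given as a description. Nearest to Cxcl9 were Gbp2, an interferon-inducible GTPase (r = 0.92), Slamf8, a receptor of myeloid cells (0.90), and Gbp8 (0.89). Nearest to Cxcl10 were the interferon-inducible GTPases Gbp3 (0.84), Gbp6 (0.83) and Irgm1 (0.83), and without the 5 tumours low in melanocyte transcripts Il18bp, a secreted inhibitor of interleukin 18 (0.88), Igtp (0.87) and Tapbpl (0.86). Nearest to Cxcr3 were Bcl11b, a T cell transcription factor (0.93), Ltb, which encodes lymphotoxin beta (0.92), and Lat, an adaptor of the T cell receptor (0.92). Nearest to Cxcl16 were Cybb and Ncf4, subunits of the phagocyte oxidase (both 0.93), and Tlr2, a receptor for microbial lipoproteins (0.91). Nearest to Cxcr6 were Klrc1, which encodes the inhibitory receptor NKG2A of NK and CD8 T cells (0.93), Trbv1, a T cell receptor segment (0.92), and Cd3d, which encodes part of CD3 (0.92).

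Cxcl11 had other neighbours, Igsf5, Pcbd1 and Alx1, each with r = 0.96. Their place as the nearest genes rests on the 5 tumours low in melanocyte transcripts. Without those tumours r was lower but still 0.82, 0.76 and 0.82, and the ranks among all genes were 28, 197 and 25. The nearest gene was then Psph, an enzyme of serine synthesis (0.88).

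The members were also set against the mean of 20 gene lists in each tumour (120 relations, adjusted over all). Cxcl9 was closest to the list of the interferon gamma signal (r = 0.86, rho = 0.87) and Cxcl10 too (r = 0.67, rho = 0.76; 0.86 without the 5 tumours). Cxcr3 was closest to the T cell list (r = 0.92, rho = 0.84; 0.82 without the 5 tumours). Cxcl16 was closest to the macrophage list by r (r = 0.87, rho = 0.73; r = 0.82 without the 5 tumours) and to the T cell list by rho (r = 0.83, rho = 0.86; r = 0.84 without them), and Cxcr6 to the CD8 and cytotoxic list (r = 0.91, rho = 0.91) and the NK cell list (r = 0.88, rho = 0.87). For each of these the permutation test gave an adjusted p of 2.14e-05 for r, the smallest the resamples allow over these relations, and without the 2 tumours farthest on the list mean r was 0.86, 0.67, 0.86, 0.86, 0.85, 0.89 and 0.88 in the order given. Cxcl11 was positively related to the melanocyte list over all tumours (r = 0.89, rho = 0.48), with r = 0.22 over the 85 tumours that remain without the 5 low ones, so the size of r rests largely on those 5. Over the 85 tumours Cxcl11 was negatively related to the endothelium (r = -0.64), macrophage and fibroblast lists (both r = -0.56).

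**Figure D5:**
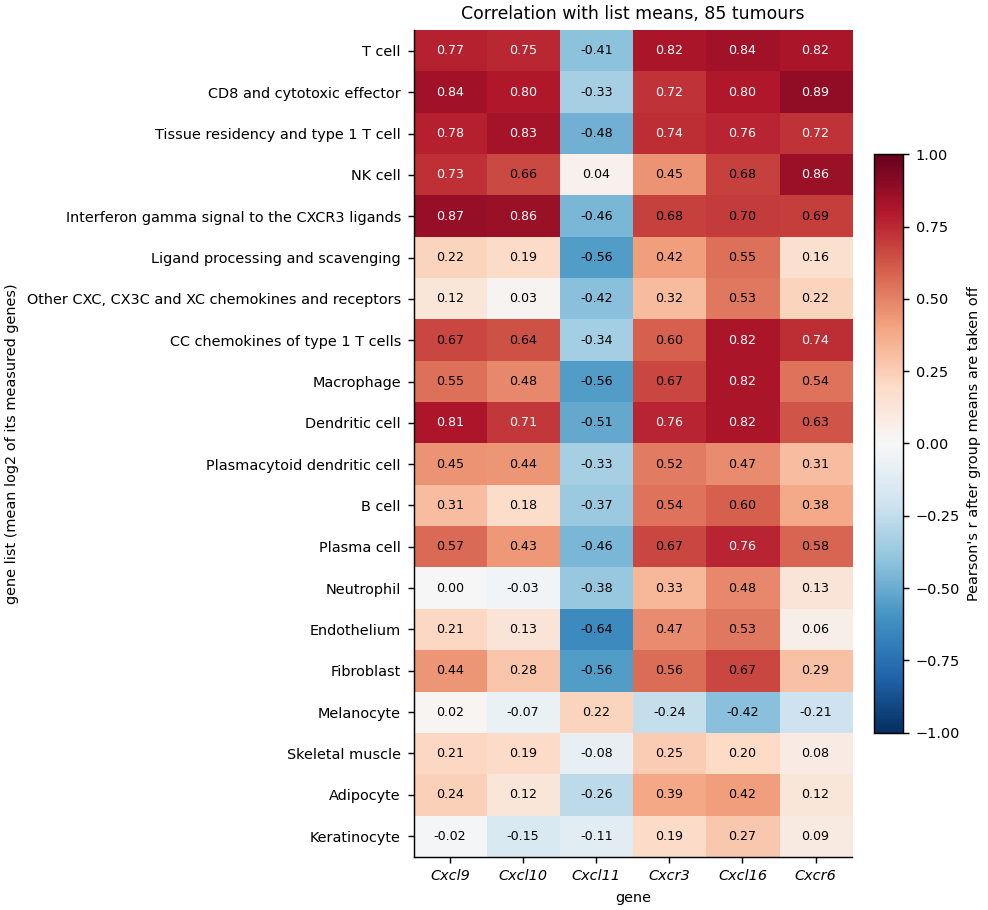
Pearson's r of each member (columns) with the mean of each gene list (rows), after group means were taken off, over the 85 tumours with a melanocyte list mean of at least 9; red is positive and blue negative. Cxcl9 and Cxcl10 have their highest values with the interferon gamma list (0.87 and 0.86), Cxcr6 with the CD8 and cytotoxic list (0.89), and the column of Cxcl11 is negative except for the NK cell (0.04) and melanocyte (0.22) lists.

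Genes of the signal that induces the CXCR3 ligands were higher in responders than in non-responders in 11 of 12 cases, beside 18.9% of all genes. Their median log2 difference was 0.54, beside -0.06 over all genes. Ifng, the inducing cytokine, was higher by 1.61 ± 0.26 (limma adjusted p = 2.36e-05), Irf8, a transcription factor of the interferon pathway, by 1.49 ± 0.24, and Irf1 by 0.74 ± 0.14. Socs1, which limits the signal, was higher by 0.75 ± 0.14. The per-tumour mean of this list ran from 8.41 to 9.54 in study 2 responders, against 7.88 to 9.63 in non-responders, and from 8.73 to 9.53 in study 3 responders, against 8.04 to 8.52 in non-responders.

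Among genes that process or scavenge the ligands, 3 of 9 were higher and 0 lower, with a median of 0.25. Over all genes 18.9% were higher and 32.3% lower. The CXCL16 sheddases Adam17 (0.44 ± 0.09, limma adjusted p = 0.000302) and Adam10 (0.25 ± 0.06, limma adjusted p = 0.00103) passed, with differences of 0.65 and 0.31 in study 3 and of 0.23 and 0.18 in study 2, where neither passed. Furin, which activates proteases of this kind, was higher by 0.44 ± 0.11. Dpp4, whose protein trims the CXCR3 ligands, had 0.13 ± 0.09 (limma adjusted p = 0.244), and Ackr3, which encodes a scavenging receptor of CXCL11 and CXCL12, had 0.40 ± 0.25 (limma adjusted p = 0.175).

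Of the other CXC, CX3C and XC chemokines and receptors, 4 of 17 were higher and 3 lower, near or below the 18.9% and 32.3% of all genes, with a median of 0.32. Cx3cr1, the fractalkine receptor, was higher by 0.37 ± 0.09, while Cxcl17 (-0.24 ± 0.05) and Cxcl1, a neutrophil attractant (-0.28 ± 0.07), were lower. Cxcl12 (1.51 ± 0.42) and its receptor gene Cxcr4 (0.73 ± 0.23), the homeostatic pair of the family, were higher. The B cell pair, Cxcl13 (0.37, limma adjusted p = 0.193) and Cxcr5 (0.25, limma adjusted p = 0.318), did not pass. Of the CC chemokines and receptors of type 1 T cells 7 of 12 were higher and 1 lower, with Ccl5 at 1.71 ± 0.27, Ccl3 at 1.35 ± 0.23 and Ccl4 at 0.80 ± 0.16.

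Most measured genes of the cells that carry the receptors were higher as well, in a comparison where 18.9% of all genes were higher and 32.3% lower. In the T cell list 10 of 12 genes were higher and 1 lower (median 1.16), with Cd3g at 2.14 ± 0.34 and Cd5 at 1.44 ± 0.25. In the CD8 and cytotoxic list 11 of 12 were higher (median 1.34), with Tbx21, the T-bet transcription factor, at 1.67 ± 0.26. In the tissue residency and type 1 list 8 of 10 were higher (median 0.53), with Il18r1 at 1.58 ± 0.27 and Il12rb1 at 1.38 ± 0.23, while Itgae, the integrin of resident T cells, had 0.00 and did not pass (limma adjusted p = 0.992). In the NK cell list 5 of 7 were higher (median 0.60), with Klrd1 at 1.36 ± 0.32, and Ncr1, which encodes the NK cell receptor NKp46, had 0.09 (limma adjusted p = 0.333). Among possible sources of ligand, 11 of 12 macrophage genes were higher (median 0.85; Csf1r 1.40 ± 0.28) and 10 of 10 fibroblast genes (median 1.20; Pdgfra 1.21 ± 0.32), and 4 of 12 dendritic cell genes (median 0.19).

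Markers of other cells that the tumours could hold were counted in the same comparison. Of the melanocyte genes 0 of 10 were higher and 4 lower (median -0.32), beside 18.9% of all genes higher and 32.3% lower, with Pmel, a melanosome protein, at -1.03 ± 0.31. Of the plasma cell genes 4 of 8 were higher (median 0.50), of the B cell genes 2 of 8 (0.02), of the neutrophil genes 4 of 7 (0.32), of the endothelial genes 3 of 8 (0.30), of the plasmacytoid dendritic cell genes 1 of 5 (0.09) and of the adipocyte genes 4 of 6 (0.83). Of the skeletal muscle genes 0 of 9 passed (median -0.10; limma, 0 with an unadjusted p under 0.05), and of the keratinocyte genes 2 of 6 were lower (-0.05).

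The T cell list mean was 6.80 ± 0.67 in study 2 responders (n = 17) and 6.21 ± 0.92 in non-responders (SD, n = 14), and 7.54 ± 0.86 in study 3 responders (n = 10), against 6.14 ± 0.30 in non-responders (SD, n = 9). The lowest and highest tumours were 5.54 and 7.71, 5.41 and 9.20, 6.37 and 9.35, and 5.60 and 6.50, in the same order. With this mean as a covariate none of the 6 genes passed between responders and non-responders, and 0.704% of all genes did, so the loss of calls is not particular to these genes. Cxcl9 was then 0.59 ± 0.26 (limma adjusted p = 0.187), Cxcr6 0.34 ± 0.22 (limma adjusted p = 0.354), Cxcl10 0.17 ± 0.16, Cxcl16 0.04 ± 0.09 and Cxcr3 -0.03 ± 0.08. With the macrophage list mean as a covariate none passed either, beside 1.09% of all genes, with Cxcl9 at 0.84 ± 0.26 (limma adjusted p = 0.0711) and Cxcr6 at 0.87 ± 0.28 (limma adjusted p = 0.0825). Against IgG Cxcr6 passed with the macrophage covariate (1.21 ± 0.28, limma adjusted p = 0.0126). With the melanocyte list mean as a covariate Cxcl11 differed between responders and non-responders by -0.07 (limma adjusted p = 0.617), and the other 5 genes passed. These lists move with the comparison themselves, and their part in the differences of the 6 genes was not tested further.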

How the data were processed

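RNA of 90 tumours (800 ng input) was hybridised to Affymetrix mouse expression arrays, 1 array per tumour. The deposited values are log2 expression made by the authors with RMA (background correction, quantile normalization and summary per probe set), and limma is also named, both per the submitters' processing notes. Versions, and whether the studies were normalized together, are not given in the sources used here. RMA gives the arrays it treats together 1 distribution, so a change of all transcripts at once would not show.

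Of 45101 probe sets, 34958 named 1 gene symbol, 932 several and 9211 none in the platform annotation. The probe set with the highest mean over 90 arrays stood for each of 18194 genes, 9012 of which had more than 1. The levels of different probe sets were not set against each other. The 12 group means were fitted with limma 3.58.1 (R 4.3.3) on all arrays, averages over studies gave each study equal weight, and p-values were adjusted by Benjamini-Hochberg over all genes (threshold 0.05). The titles give each tumour a number of its own, read as an animal number, and p-values rest on tumour to tumour spread. Correlations used values with group means taken off, permuted within groups (100000 resamples), or, within groups under 10 tumours, exact permutations. The number of arrays limits the precision. The fit was tested on simulated data.

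The members and gene lists were chosen with earlier results of these data known. Named were the 6 members, the 3 genes with the highest r to each, and a fixed set of pathway and cell genes (among them Irf1, Dpp4, Ackr3, Cxcl12, Cxcr4, Cxcl13, Cxcr5, Itgae and Ncr1). Others came from the 3 genes of each list with the smallest p between responders and non-responders. Only some of these were named, and for some lists none. Those named were not always the ones with the smallest p, as with Pmel in place of Gpr143 in the melanocyte list. The nearest genes over 85 tumours (Il18bp, Igtp, Tapbpl and Psph) were named after their values were seen. Alternatives were another prior, array weights, probe set choice, removal of dim genes, centring on medians, quantile normalization within study, 3 prime to 5 prime differences, fewer groups, a stricter threshold, left-out tumours and the T cell list mean. The dimmer probe sets and the melanocyte and macrophage list means were added after seeing the data. RefSeq promoter windows (GRCm38.p6) were searched on both strands.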

Additional observations from a re-analysis of the deposited data

Results flagged for a closer look

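Of 24 sets of tumours checked (6 genes in the 4 groups of 4 to 10 tumours), 3 held a tumour far from the others of its group, and chance marks about 1 set in 20. Cxcl9 was 13.20 in study 3 responder replicate 4, and the next highest of the 10 was 12.05. Cxcl10 was 8.89 in study 3 responder replicate 3, and the next lowest of the 10 was 10.58. Both tumours are among the 5 low in melanocyte transcripts, with melanocyte list means of 6.65 in replicate 4 and 6.70 in replicate 3. Cxcl16 was 8.91 in study 3 IgG replicate 3, and the next highest of the 8 was 8.19.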

How the results depend on the processing

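Counts are of the 6 genes past the threshold, with the reported count in brackets, and the cause of a move was not tested. The number of all genes called also moved widely under the alternatives. A move is therefore not read as particular to the 6 genes, and ranges over all genes close this section. A small change of a count, such as 4 in place of 5, was not taken as a move and is not listed. Single calls could be lost in this way. At the threshold of 0.05, Cxcl9 against IgG in study 3 passed in 9 of 15 alternatives, and Cxcl10 between responders and non-responders in 12 of 15. The alternative with the 0.01 threshold is the reported fit itself, so at 0.05 it passes in both cases by construction. Cxcl10 has a single probe set, so the alternatives in probe set choice leave its values unchanged. A trend in the prior and median centring moved none of the counts computed under them. Array weights, whose estimate stopped before convergence, gave 5 higher (2) between study 2 responders and non-responders, 5 higher (3) and 1 lower (0) against IgG in study 2, and 0 lower (1) in study 3. They also gave 5 higher (1) and 1 lower (0) for relapse against non-responders, 5 (0) and 1 (0) for relapse against IgG, 4 higher (0) and 1 lower (0) for stabilization against responders, 5 higher (3) for stabilization against IgG, and 3 higher (0), with 2 (0) in study 3, for IgG against PBS, while calling 42.6%, 60.5%, 10.5%, 58.4%, 48.4%, 63.3%, 71.9%, 27% and 21.1% of all genes in these comparisons, in the order given. The mean of all probe sets, the 3 prime to 5 prime covariates, the 0.01 threshold, the melanocyte covariate, the macrophage covariate and the dimmer probe sets each gave 0 lower (1) between responders and non-responders. Except for the mean of all probe sets, these, the fit of the groups compared alone and leaving out the 5 low tumours also gave 0 lower (1) in study 3. Against IgG 0 were lower (1) with the 3 prime to 5 prime, melanocyte and macrophage covariates and at 0.01, and in study 3 also with the groups compared alone and without the 5 tumours. In study 2 between responders and non-responders 0 were higher (2) with the dim filter, at 0.01 and with the groups compared alone, 1 with quantile normalization and 5 without the 5 tumours. The dim filter removed Cxcr6, 1 of the 2 genes in brackets, so that gene was not tested under it. At 0.01, 1 (3) was higher against IgG in study 2. With the T cell covariate 0 passed in all responder, relapse and stabilization comparisons that had calls (0.704% of all genes against non-responders and 0% against IgG), and 1 (0) passed in IgG against PBS in study 3, as it did without the 5 tumours. The macrophage covariate left 0 higher against non-responders, overall and in both studies, 1 (5) against IgG and 0 (4) against IgG in study 3, where the melanocyte covariate left 1. Relapse against non-responders had 0 (1) higher with quantile normalization, the 3 prime to 5 prime, T cell and macrophage covariates and at 0.01, 2 with the melanocyte covariate and 3 without the 5 tumours, and against IgG 2 (0) with the groups compared alone and 1 without the 5 tumours. Without stabilization replicate 1, and with the T cell, melanocyte and macrophage covariates, 0 (4) were higher and 0 (1) lower for stabilization against non-responders. Against IgG these counts were 0 (3) and 0 (1), and 0 were lower with the groups compared alone as well. At 0.01, 2 were higher for stabilization against non-responders. Without the 5 tumours only stabilization replicate 3 is left of its group, so no counts are given for it. Of the ligand and receptor pairs by group 1 (13) passed with the T cell mean taken out.

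Leaving out single tumours gave 0 to 3 higher for relapse against non-responders, 0 to 4 higher and 0 to 1 lower for stabilization against non-responders, 0 to 3 and 0 to 1 against IgG, and 0 to 1 lower against responders. Without non-responder 14 of study 2, 4 (2) were higher against non-responders and 5 (3) against IgG there.

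Directions turned round as follows. With array weights Cxcl10 was 0.35 for stabilization against responders and 0.86 against IgG. Without the 5 tumours Cxcl11 was 0.01 for stabilization against IgG, a value that comes from stabilization replicate 3 alone. With the T cell covariate responders differed from non-responders by 0.17 for Cxcl11 and -0.03 for Cxcr3, and from IgG by 0.21 for Cxcl11, -0.09 for Cxcr3 and -0.05 for Cxcl16, with -0.08 for Cxcl9, 0.09 for Cxcl11, -0.00 for Cxcr3 and -0.04 for Cxcl16 in study 3. With the T cell mean taken out r was 0.32 for Cxcl9 and Cxcl11, -0.30 for Cxcl9 and Cxcr3, -0.34 for Cxcl10 and Cxcr3, 0.52 for Cxcl11 and Cxcr6 and -0.42 for Cxcr3 and Cxcr6. By group it was then -0.14 for Cxcl9 and Cxcr3 in study 2 IgG, -0.80 in study 2 responders and -0.13 in study 2 IgG for Cxcl10 and Cxcr3, 0.15 for Cxcl11 and Cxcr3 in study 3 responders, and -0.09 in study 2 responders and -0.15 in study 2 IgG for Cxcl16 and Cxcr6. With the melanocyte mean taken out Cxcl11 and Cxcr6 had r = 0.02.

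Over all genes, 9319 were called between responders and non-responders, with 128 to 10731 under the alternatives, and 6436 against IgG, with 0 to 8377. Between responders and non-responders 478 were called in study 2, with 18 to 7746, and 6680 in study 3, with 1 to 7105. Against IgG, responders had 4973 in study 2, with 1195 to 11008, and 3162 in study 3, with 0 to 3697. Relapse against non-responders had 4370, with 351 to 10626, and relapse against IgG 198, with 0 to 8799. No paired analysis was possible because the number in each tumour's title, read here as an animal number, is shared by no other tumour.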
